A study of Mus musculus with 4 samples.

Results

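The neuronal calcium sensors of the hippocalcin family were described as 10 genes, chosen by their symbol in the platform annotation: Hpca, Hpcal1, Hpcal4, Vsnl1, Ncs1, Kcnip1, Kcnip2, Kcnip3, Kcnip4 and Rcvrn. All 10 were measured, each by 1 probe set, among 19505 gene symbols in all. The family was taken up because Hpca and Vsnl1 were known to lie higher in the same comparison, so its differences between the groups are given as a description, with no test. Gene expression was measured on Clariom S microarrays in the brain cortex of SAMP8 males, inbred mice prone to accelerated senescence and used as a model of age-related memory loss. The TCQA group received TCQA, a compound named in the labels by this abbreviation only, orally at a daily dose of 5 mg/kg over 1 month, starting at an age of 11 months. Control mice were given MilliQ water. All mice were of the same strain and sex and had lived in single cages for 4 months, starting at 7 months, before treatment. Each group had 2 arrays, and the labels do not say whether these came from separate mice, so the spread between replicates may be partly technical.

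Neuronal calcium sensors are small EF-hand proteins that turn a rise in intracellular calcium into a change of protein interactions. Most carry an N-terminal myristoyl group, and in several of them calcium binding exposes this group and moves the protein to membranes. In cortical neurons members of the family act on potassium and calcium channels, receptor traffic, phosphoinositide synthesis and transcription. They fall into hippocalcin and the visinin-like proteins (Hpca, Hpcal1, Hpcal4, Vsnl1), NCS-1 (Ncs1), the potassium channel interacting proteins or KChIPs (Kcnip1 to Kcnip4) and recoverin (Rcvrn), which is known chiefly from photoreceptors.

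In 7 of the 10 genes both TCQA arrays lay above both control arrays, where 18.9% of all 22206 gene probe sets did so. These were Hpca, Vsnl1, Kcnip3, Hpcal1, Kcnip1, Kcnip4 and Ncs1. In 1 gene, Hpcal4, both TCQA arrays lay below both control arrays, where 17.8% of all gene probe sets did so. The groups thus did not overlap in 8 of the 10 genes, against 36.6% of all gene probe sets, and they overlapped in Kcnip2 and Rcvrn. The log2 differences, TCQA minus control, ran from 1.23 for Hpca to -0.39 for Rcvrn, with a median of 0.32 over the 10 genes and of 0.01 over all gene probe sets. Hpca met the depositors' criterion, which asks for a fold change over 2 and an unadjusted p under 0.05 and which 0.203% of all gene probe sets met with a higher level under TCQA. The other 9 members did not meet it. In bulk tissue more cells of a type and more RNA per cell cannot be told apart. Because the members were chosen with these differences known, nothing is read from these counts against the shares of all gene probe sets. With limma and Benjamini-Hochberg adjustment 0 of the 22206 gene probe sets passed, while 1386 had an unadjusted p under 0.05, and without empirical Bayes moderation the same counts were 0 and 1353.

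**Figure D1:**
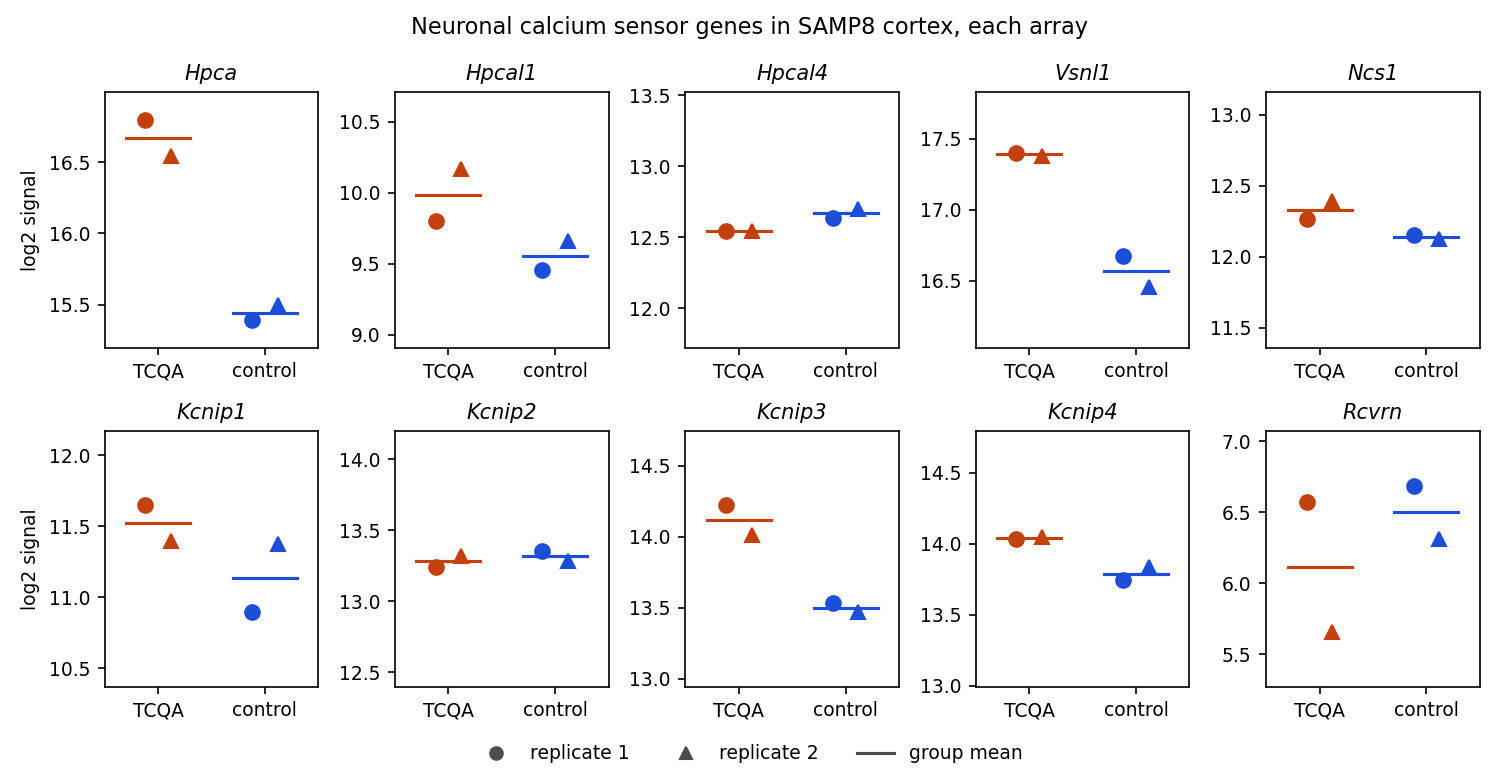
Log2 signal of the 10 members on each array, with 1 panel per gene, TCQA left of control, circles for replicate 1, triangles for replicate 2 and lines for group means. Every panel spans the same range, and the levels of different panels are not comparable. The TCQA arrays stand clear of the control arrays for Hpca, Vsnl1 and Kcnip3, and the groups overlap for Kcnip2 and Rcvrn.

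The sequence upstream of the gene start is shown for the 3 genes that differed most, Hpca, Vsnl1 and Kcnip3, and for Hpcal4, the close relative of Hpca whose TCQA arrays lay below the control arrays. Each window is the 250 bases before the most upstream start listed for the gene in RefSeq on GRCm38.p6, written 5′ to 3′ on the strand of the gene. The capitals mark GC boxes, GGGCGG or its reverse complement CCGCCC, which are bound by SP-type factors.
Hpca (chr4:129121748-129121997, minus strand): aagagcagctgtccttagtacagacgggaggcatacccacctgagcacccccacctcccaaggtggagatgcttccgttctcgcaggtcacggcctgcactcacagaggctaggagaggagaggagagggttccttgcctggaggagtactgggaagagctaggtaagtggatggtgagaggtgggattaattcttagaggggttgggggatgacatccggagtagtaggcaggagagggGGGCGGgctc
Vsnl1 (chr12:11436579-11436828, minus strand): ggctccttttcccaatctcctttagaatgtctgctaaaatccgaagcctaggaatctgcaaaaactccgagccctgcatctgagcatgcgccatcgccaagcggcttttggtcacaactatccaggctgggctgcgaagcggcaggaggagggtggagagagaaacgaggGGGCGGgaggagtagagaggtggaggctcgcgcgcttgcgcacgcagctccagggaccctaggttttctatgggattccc
Kcnip3 (chr2:127522095-127522344, minus strand): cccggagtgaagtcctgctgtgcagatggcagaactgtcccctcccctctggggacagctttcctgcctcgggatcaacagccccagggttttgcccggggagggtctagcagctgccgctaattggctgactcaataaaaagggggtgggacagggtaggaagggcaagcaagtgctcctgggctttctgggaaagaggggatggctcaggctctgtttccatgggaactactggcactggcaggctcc
Hpcal4 (chr4:123183254-123183503, plus strand): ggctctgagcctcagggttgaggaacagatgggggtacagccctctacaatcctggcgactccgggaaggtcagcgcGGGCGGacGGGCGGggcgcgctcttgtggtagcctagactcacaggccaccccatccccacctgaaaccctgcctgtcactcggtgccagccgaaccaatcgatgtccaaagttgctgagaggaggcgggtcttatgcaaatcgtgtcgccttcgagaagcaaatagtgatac

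The Hpca window lies inside the span of the annotated gene, which has longer models, and the windows of Vsnl1, Kcnip3 and Hpcal4 lie outside theirs. RefSeq windows were available for 9 of the 10 members, with 17 starts in all. A GC box was in 9 of the 17 windows, against 32.7% of the 32851 windows of all genes. At the most upstream start 6 of the 9 members held one, Kcnip1 and Kcnip3 had one at another start, and Kcnip4 had none in its windows. The Hpca window had 6 CpG dinucleotides, that of Vsnl1 14, that of Kcnip3 4 and that of Hpcal4 16, with a median of 6 over all windows. These counts hold for the most upstream start only. Windows at the other starts had 16 and 3 for Hpca, 4 for Vsnl1 and 2 and 23 for Kcnip3. The letters TGACG, which form one side of the cyclic AMP response element TGACGTCA and are contained in it, were in 0 of the 17 windows on either strand, against 17.8% of all windows. The E-box CACGTG was in 1 of the 17, a downstream Hpca start, and 6.02% of all windows held it. The letters TATAAA were in 0 of the 17, against 12.4% of all windows. These are matches of letters within short windows.

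Hpca encodes hippocalcin, which is abundant in pyramidal neurons of hippocampus and cortex, takes part in the slow afterhyperpolarization and in AMPA receptor endocytosis, and is mutated in a form of dystonia in humans. Its log2 signal was 16.80 and 16.54 with TCQA, against 15.39 and 15.49 in control. Both TCQA arrays were higher, and the smallest difference between a TCQA and a control array was 1.05. The group means were 16.67 ± 0.18 with TCQA and 15.44 ± 0.07 in control (SD, n = 2 per group), so that they differed by 1.23 (SE 0.19), or 2.34-fold. The arrays of a group differed by 0.26 with TCQA and by 0.10 in control, so the difference between groups was several times the gap between replicates. With any 1 array left out it lay between 1.10 and 1.36. Of all gene probe sets 99.9% had a lower difference than Hpca.

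Vsnl1 encodes visinin-like protein 1, which acts on nicotinic receptor traffic and cyclic nucleotide signalling and is used in humans as a cerebrospinal fluid marker of neuronal injury. Its log2 signal was 17.40 and 17.38 with TCQA, against 16.68 and 16.46 in control. The TCQA arrays were almost equal and both lay above the control arrays, with a smallest difference of 0.71. The means were 17.39 ± 0.01 with TCQA and 16.57 ± 0.15 in control (SD, n = 2 per group), so that they differed by 0.83 (SE 0.18), or 1.77-fold. It lay between 0.72 and 0.94 without each array in turn.

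Hpcal1, also called VILIP-3 and known from cerebellar Purkinje cells, had log2 signals of 9.80 and 10.17 with TCQA, against 9.45 and 9.66 in control. The groups did not overlap, but the nearest TCQA and control arrays were 0.14 apart, less than the 0.37 between the TCQA arrays. Its difference of 0.43 (SE 0.21) was 0.24 without TCQA replicate 2 and 0.61 without TCQA replicate 1. Hpcal4, also called VILIP-2 and known to modulate P/Q-type calcium channels, had 12.55 on both TCQA arrays, against 12.64 and 12.70 in control. Both TCQA arrays were lower, with pairwise differences of -0.16 to -0.09, and the difference of -0.12 was smaller than its SE of 0.17. Probe sequences were not analysed here, so whether signal crosses between these close paralogs was not tested.

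Ncs1 encodes neuronal calcium sensor 1, called frequenin in Drosophila, which activates a phosphatidylinositol 4-kinase and binds the dopamine D2 receptor. Its log2 signal was 12.27 and 12.39 with TCQA, against 12.15 and 12.13 in control. The TCQA arrays were higher by a small margin, at least 0.12, and the difference was 0.19 (SE 0.17).

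The KChIPs are auxiliary subunits of Kv4 channels, which carry the A-type potassium current of dendrites, and KChIP3 has further roles. Kcnip3 encodes KChIP3, also named calsenilin for its binding to presenilins and DREAM as a calcium-regulated transcriptional repressor. Its log2 signal was 14.22 and 14.01 with TCQA, against 13.53 and 13.47 in control. Both TCQA arrays lay at least 0.48 above the control arrays, more than the 0.21 between the TCQA arrays. The means were 14.12 ± 0.15 with TCQA and 13.50 ± 0.05 in control (SD, n = 2 per group), so that they differed by 0.62 (SE 0.18), or 1.53-fold, which lay between 0.51 and 0.72 without each array in turn.

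Kcnip4, which encodes a KChIP with an isoform that slows Kv4 inactivation, had log2 signals of 14.03 and 14.04 with TCQA, against 13.74 and 13.84 in control. Replicates were close in both groups, and the difference was 0.25 (SE 0.17). Kcnip1, a KChIP prominent in cortical interneurons, had 11.65 and 11.40 with TCQA, against 10.89 and 11.38 in control. The lower TCQA array and the higher control array were only 0.02 apart, and the difference of 0.39 (SE 0.23) was 0.14 without control replicate 1. Kcnip2, the KChIP shared by heart and pyramidal neurons, had 13.24 and 13.32 with TCQA, against 13.36 and 13.28 in control. Its arrays overlapped, and its difference was -0.04 (SE 0.17).

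Rcvrn encodes recoverin, which inhibits rhodopsin kinase in photoreceptors. Its log2 signal was 6.57 and 5.66 with TCQA, against 6.69 and 6.31 in control. The groups overlapped, the TCQA arrays were 0.91 apart, and the difference of -0.39 (SE 0.33) was 0.07 without TCQA replicate 2. Both group means were below the negative control median, which averaged 7.23 over the arrays and serves as a rough mark of dim signal, while both means of the other 9 members lay above it. All 10 photoreceptor genes measured, among them Sag, Crx and Nrl, also had both group means under that median. The 95th percentile of the negative controls, a stricter mark, was 11.14 to 11.31 over the arrays. Both Hpcal1 means, 9.98 with TCQA and 9.56 in control, lay under it, as did the control mean of Kcnip1, 11.13. Without Rcvrn the median difference over the other 9 members was 0.39.

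**Figure D2:**
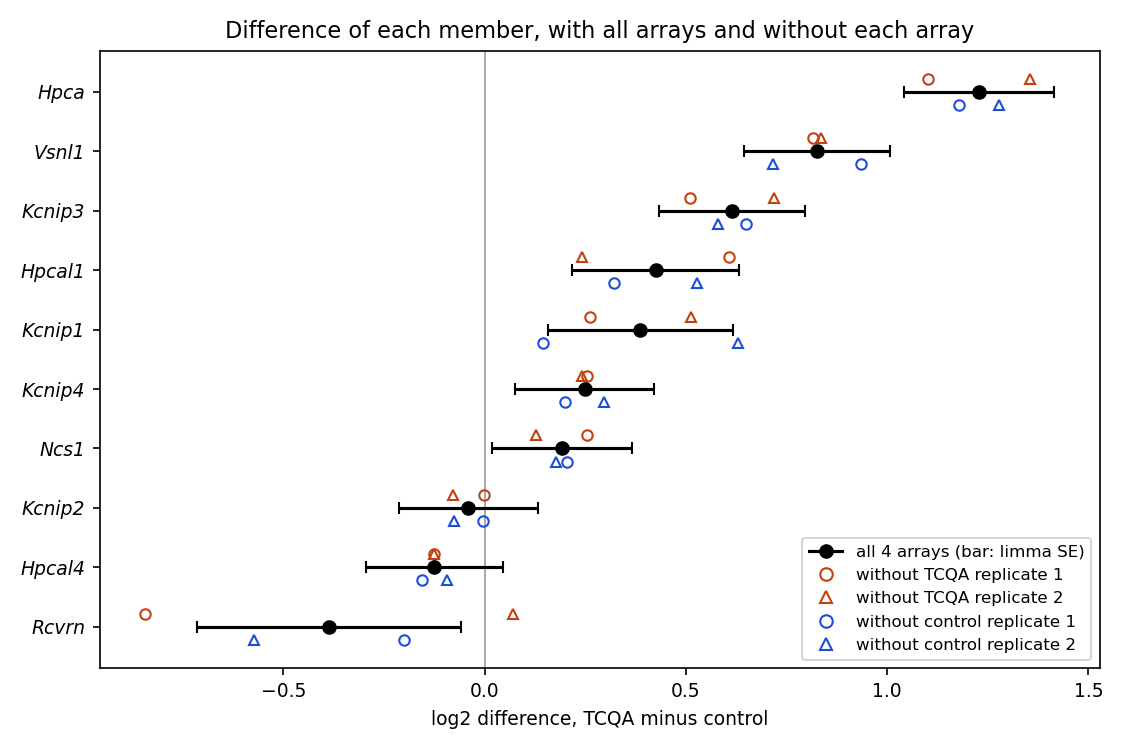
Log2 difference, TCQA minus control, of each member from all 4 arrays (black, bars are the limma SE) and with 1 array left out (open symbols). Hpca, Vsnl1 and Kcnip3 stay above 0.5 whichever array is left out, and Rcvrn changes sign without TCQA replicate 2.

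**Figure D3:**
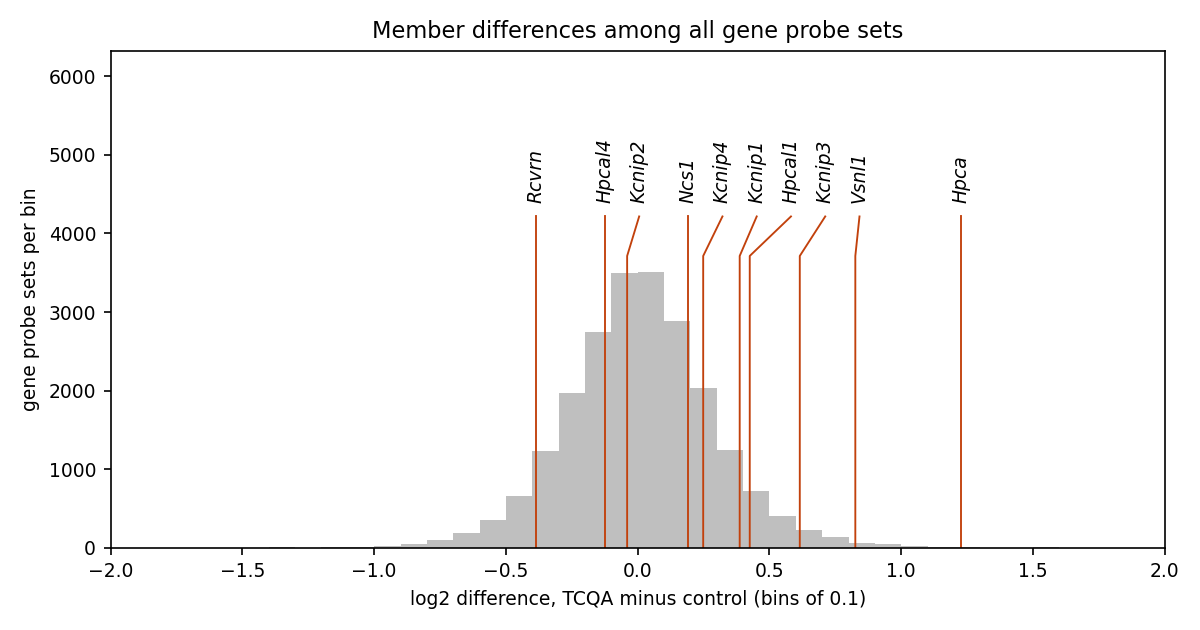
Number of gene probe sets (vertical axis) by log2 difference, TCQA minus control (horizontal axis, shown from -2 to 2), with the 10 members marked by lines. The median of all gene probe sets is 0.01, Hpca lies at 1.23 in the upper tail, and Hpcal4 and Kcnip2 lie near the centre.

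The genes around the family were read from 11 lists written from general knowledge, but chosen with earlier results of these data known. Of 82 listed genes 75 were measured, and 7 were not analysed here. Of the 75, 34 had a higher mean with TCQA, as 51.1% of all gene probe sets did, and 41 a lower one, with a median difference of -0.06. Both TCQA arrays lay above both control arrays in 16, where 18.9% of all gene probe sets did so, and below them in 21, where 17.8% did so. At an unadjusted p under 0.05, which 6.24% of all gene probe sets had, 3 were higher and 3 lower, and 0 passed limma when adjusted over all genes. The depositors' criterion was met by 2 of the 75, Calb2 and Fos, and by 0.374% of all gene probe sets.

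The other photoreceptor-type sensors, the guanylate cyclase activating proteins, were dim. Guca1b had log2 signals of 6.67 and 6.24 with TCQA, against 6.08 and 5.70 in control, and Guca1a overlapped between the groups with a difference of -0.29. Both genes had both means under the negative control median.

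Of the 5 A-type channel subunits that KChIPs join, none met the depositors' criterion, and the list median was 0.04. Kcnd2, the main Kv4 subunit of cortical pyramidal dendrites, differed by -0.11 and Kcnd3 by 0.04, both with overlapping groups. The auxiliary subunits Dpp6 and Dpp10 differed by 0.09 and 0.31, and Dpp10 by 0.09 without TCQA replicate 1. Kcnd1 had log2 signals of 6.29 and 6.40 with TCQA, against 7.39 and 6.77 in control, a difference of -0.74 (SE 0.25) that was -0.43 without control replicate 1, with both means under the negative control median.

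Binding partners of the sensors went both ways, with 4 of 9 higher and a list median of -0.07. Drd2, the dopamine D2 receptor, differed by -0.07 and Pi4kb, the kinase that NCS-1 activates, by -0.31, both with overlapping groups, and the Pi4kb difference was -0.09 without TCQA replicate 1 and -0.06 without control replicate 2. Psen2, a presenilin, had 6.53 on both TCQA arrays, against 5.96 and 6.14 in control, under the negative control median in both groups. Ap2b1, a subunit of the clathrin adaptor that hippocalcin binds, differed by 0.23 with overlapping arrays. The N-myristoyltransferase genes Nmt1 and Nmt2, whose products attach the lipid anchor, differed by -0.06 and -0.11.

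Of 3 genes known as targets of repression by KChIP3, the groups were separate for Fos alone. Fos, an immediate early gene, had log2 signals of 8.23 and 8.10 with TCQA, against 10.01 and 8.95 in control. Its difference of -1.32 (SE 0.35) was -0.79 without control replicate 1. The Fos difference was not particular to this list. All 12 immediate early genes listed, Fos among them, had a lower mean with TCQA, at a median of -1.25. Whether Kcnip3 had a part in it was not tested. Pdyn, the dynorphin precursor, differed by 0.11 and Slc8a3, a sodium-calcium exchanger, by 0.11, both with overlapping groups, and Pdyn by -0.35 without TCQA replicate 2.

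Among other EF-hand genes the calmodulin genes Calm2 and Calm3 differed by -0.19 and 0.03. Their neuronal relative Cabp1 had 12.78 and 12.69 with TCQA, against 13.37 and 12.98 in control, a difference of -0.44 (SE 0.21) that was -0.24 without control replicate 1. The list of 10 calmodulin and CaBP genes had a median of 0.03. Of 11 buffer genes Calb2, which encodes calretinin, had 11.26 and 10.87 with TCQA, against 9.42 and 9.71 in control, a 2.83-fold difference, and the list median was 0.03. Calb1 and Pvalb, the calbindin and parvalbumin genes, differed by 0.24 and -0.20 with overlapping groups. Scgn, the secretagogin gene, differed by 1.03 with overlapping groups and its highest signal on TCQA replicate 1, and by 0.03 without that array, at 8.70 and 6.70 with TCQA, against 7.18 and 6.14 in control. Calcineurin B, CHP and CIB genes had a median of 0.03 and penta-EF-hand genes one of -0.07. The calmodulin kinase genes Camk2a and Camk2b, which act downstream of calmodulin, differed by -0.28 and 0.28, each with groups that did not overlap. The list of 10 calmodulin kinase and calcineurin genes had a median of -0.06. Both TCQA arrays lay below both control arrays in 4 of them, against 17.8% of all gene probe sets, and above in 2, against 18.9%.

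**Figure D4:**
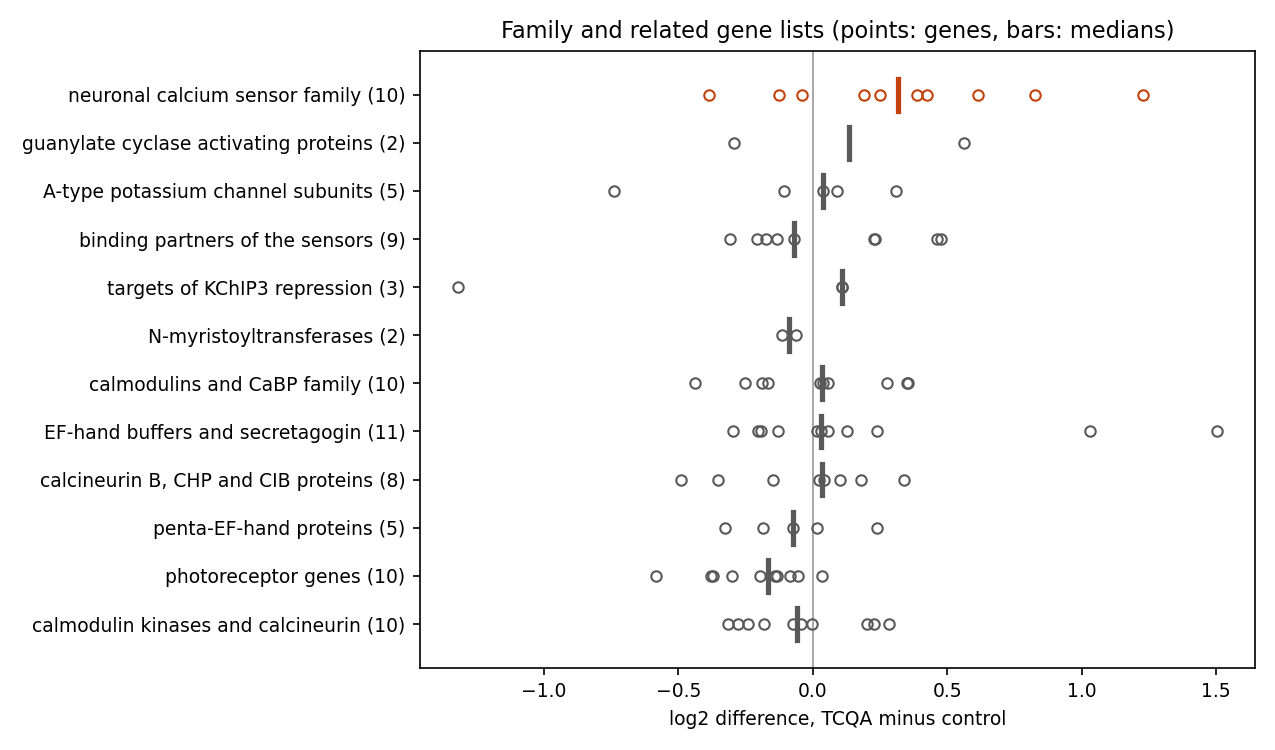
Log2 difference, TCQA minus control, of each measured gene (open circles) in the calcium sensor family and in 11 related lists, with list medians as bars and the number of genes in brackets. The family median is 0.32, the medians of the other lists lie between -0.17 and 0.14, with Calb2 the highest point and Fos, at -1.32, the lowest.

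The genes whose pattern over the 4 arrays was nearest to that of Hpca were sought among 10048 named probe sets at or above the median signal, by Euclidean distance after centring each on its own mean. The 6 nearest were Uprt, Rab2b, Trp53i11, Sike1, Fbxw5 and Pdk4, at distances of 0.18 to 0.27 log2 units. Uprt, a homologue of uracil phosphoribosyltransferase, had 11.36 and 11.20 with TCQA, against 9.85 and 9.93 in control. Rab2b, a small GTPase of vesicle traffic, had 10.70 and 10.45 with TCQA, against 9.42 and 9.24 in control. The 4 nearest to Vsnl1 were Gstp2, Ccdc3, Foxo1 and Bcl2, at distances of 0.06 to 0.18. Gstp2, a glutathione transferase gene with a near-identical neighbour that may share signal, had 10.33 and 10.39 with TCQA, against 9.68 and 9.41 in control. No other member was among these 10 genes, which were picked for a like pattern over 4 arrays only.

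Pairs of arrays correlated at 0.991 to 0.993 over the gene probe sets, with array medians of 7.12 to 7.17. Markers of cortical excitatory neurons were present, with Slc17a7, the vesicular glutamate transporter, at a mean of 16.21 with TCQA and 16.53 in control. Marker lists were read beside the sensors without a test. Excitatory markers had a lower mean with TCQA in 7 of 9, without overlap in 4, against 17.8% of all gene probe sets. Their median was -0.28, and their mean log2 level per array was 12.56 to 13.02 with TCQA and 12.93 to 13.16 in control. For inhibitory markers 7 of 10 had a higher mean, without overlap in 4, against 18.9% of all gene probe sets. The median was 0.44 and levels per array were 10.49 to 10.62 with TCQA and 10.19 to 10.28 in control. Gad1 differed by -0.17 without TCQA replicate 1. Lhx6 differed by -0.54 without TCQA replicate 2 and by -0.20 without control replicate 1. The other inhibitory markers with a higher mean kept a positive difference whichever array was left out, though Dlx1 was at 0.06 without TCQA replicate 1. For thalamic markers 9 of 10 had a higher mean, without overlap in 6, against the same 18.9%. The median was 0.49, at levels of 9.32 to 9.64 with TCQA and 8.53 to 9.07 in control. Tcf7l2 and Slc17a6 were highest on TCQA replicate 2 and differed by -0.25 and 0.21 without it. The other thalamic markers with a higher mean kept a positive difference without that array. Without control replicate 1, Prkcd differed by -0.10, Zic1 by 0.78 and Ntng1 by 0.09. The remaining thalamic markers with a higher mean kept a positive difference without control replicate 1. This list also holds Calb2, the buffer gene described above. The mean was higher with TCQA in 9 of 10 astrocyte markers (median 0.27) and in 10 of 10 meningeal fibroblast markers (median 0.54). Both TCQA arrays lay above both control arrays in 6 and 5 of them, against 18.9% of all gene probe sets. Meningeal levels were 8.20 and 8.29 with TCQA, against 7.35 and 7.99 in control replicates 1 and 2. Without control replicate 1, Dcn, Lum, Igf2 and Col1a2 differed by -0.58, -0.26, -0.23 and -0.07, and the other meningeal differences stayed positive. In both groups 3 of the 10 meningeal markers lay under the negative control median. The medians of striatal, oligodendrocyte, microglial and endothelial markers were -0.06, 0.03, 0.09 and 0.20. Of the 10 endothelial markers both TCQA arrays lay above both control arrays in 6, against 18.9% of all gene probe sets. They lay below them in 2, against 17.8%. Choroid plexus markers had a median of -0.05 but differed widely between arrays, with mean levels of 7.13 and 7.78 with TCQA, against 6.31 and 8.18 in control replicates 1 and 2. Their most variable gene, Ttr, was at 12.23 and 14.97 with TCQA, against 7.49 and 16.42 in control. Hippocampal markers, of interest because hippocalcin is most abundant there, had a median of 0.04 and levels of 7.53 to 7.66 with TCQA and 7.54 to 7.66 in control, with 6 of 9 under the negative control median in both groups. Immediate early genes had a lower mean with TCQA in 12 of 12, with groups that did not overlap in 9 of them, against 17.8% of all gene probe sets. Control replicate 1 was their highest array in all 12. Sensor genes higher on both TCQA arrays could not be highest there. Of these, Hpca, Hpcal1, Kcnip1 and Kcnip4 were lowest on control replicate 1. Vsnl1, Ncs1 and Kcnip3 were lowest on control replicate 2. The part of the marker and immediate early gene differences in the sensor differences was not tested. Without control replicate 1 the differences of Hpca, Vsnl1 and Kcnip3 were 1.18, 0.94 and 0.65. The median over the 10 members was then 0.20, against 0.32 with all arrays.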

How the data were processed

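RNA from SAMP8 brain cortex, 2 TCQA and 2 control samples grouped by title, was amplified from 100 ng with the WT PLUS kit, per the labels' protocols. The authors deposited 1 log2 signal for each probe set and array, made with SST-RMA in the Transcriptome Analysis Console (version 4.0.2), per the labels' design text. The algorithm corrects for probe sequence and scales arrays to a common distribution, so a probe set is compared between arrays and not with another probe set. The build behind the array annotation was not given in the sources used here.

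Of 28846 probe sets 6640 were controls and 22206 entered the fit. Through the platform annotation 19572 had a single symbol and 2634 are unnamed here. Where a symbol had several probe sets the brightest was used. TCQA was set against control with limma (version 3.58.1, R 4.3.3; lmFit, eBayes, two-sided, 2 residual and 4.23 prior degrees of freedom) and Benjamini-Hochberg adjustment over all 22206. The procedure was tested on simulated data. Promoter windows came from RefSeq. Precision is limited by the number of arrays: a log2 difference had a median SE of 0.20.

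All 10 members were named, from related lists genes with non-overlapping groups and a difference of at least 0.5 first, and the nearest patterns by distance. Members and lists were chosen with earlier results of these data known. Alternatives left out each array, rescaled the arrays, dropped dim probe sets, averaged the probe sets of a symbol, added a replicate block or changed the moderation.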

Additional observations from a re-analysis of the deposited data

How the results depend on the processing

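When each array was left out or the arrays were centred or quantile normalized, 59 of 60 values of a member's difference kept their sign. The exception was Rcvrn at 0.07 without TCQA replicate 2. For the 8 members whose groups did not overlap, leaving out an array cannot change the sign, so the count says little about them. Kcnip2 kept its sign at only -0.001 without TCQA replicate 1. The replicate block, the mean of probe sets and the filter on dim probe sets cannot move a member's difference. The count of members with groups that did not overlap was 8 of 10, against 36.6% of all gene probe sets, and 8 to 10 without each array in turn, against 66.6% to 69.3%. Their median difference of 0.32 was 0.20 to 0.41 without each array in turn, lowest without control replicate 1, and 0.39 among probe sets at or above the median signal, where Rcvrn drops out. The probe sets past the depositors' criterion numbered 83, but 160 to 291 without each array in turn, 36 at or above the median signal and 25 without empirical Bayes moderation. With the replicate number as a block they numbered 92, and the deviations of same-numbered arrays had a correlation of 0.05 across genes, so the numbers are not taken to pair the samples. Without TCQA replicate 1, 4 probe sets passed adjustment over all genes (limma), Pmch, Gabrq, Gh and 1 not named here, of which none is a member and which were named after their values were seen. With 2 arrays a group, a difference near 0.20 is no larger than the median SE, and larger ones can still lie within the error of a single gene. Hpcal1 at 0.43 (SE 0.21), Kcnip1 at 0.39 (SE 0.23) and Kcnip4 at 0.25 (SE 0.17) did not reach an unadjusted p under 0.05 (limma). Among the 10 members Rcvrn had the largest SE, 0.33, and both its group means lay under the negative control median.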
